A study of Mus musculus with 78 samples.

Results

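Solute carriers are membrane proteins that move small molecules across the cell surface and across the membranes of mitochondria, the Golgi apparatus and other organelles. In the liver they take bile acids, drugs, fatty acids, sugars and amino acids from the blood, pass some of them into bile, and supply mitochondria and the secretory pathway with metabolites and metal ions. Most are secondary transporters, which run on gradients of sodium, protons or the substrate itself, or exchange 1 substrate for another. The genes described here are those on the probe panel whose symbol begins with SLC and a digit, or with SLCO, and that the authors kept after their filter on low values: 39 of 58 such genes on the panel, among 2205 kept genes of 2755. SLC9A3R1 fits the symbol rule but encodes a scaffold protein that binds transporters, so it is described apart. The 19 genes left out by the filter were SLC17A6, SLC22A2, SLC22A6, SLC25A27, SLC26A3, SLC28A2, SLC2A10, SLC2A3, SLC2A6, SLC38A5, SLC51A, SLC5A5, SLC6A15, SLC6A20A, SLC6A3, SLC7A11, SLC7A6, SLCO1C1 and SLCO4C1.

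Expression was measured with TempO-Seq, a targeted method that counts ligated probe sets, in archived FFPE liver sections of male B6C3F1 mice, with 1 library per mouse. The mice arrived at an age of 21 days, had 7 days of acclimation, and then drank deionized water either alone or with dichloroacetic acid (DCA) at 3.5 g/L, an inhibitor of pyruvate dehydrogenase kinase that raises liver tumour incidence in mice. Group names give the treatment arm and the week of collection after treatment began, so ages differ by those weeks and each treated group is set against water of the same week. Of the S1 arm, which had DCA for 10 weeks and then water, 6 libraries each were used at week 10 (S1-10, still on DCA), 32 (S1-32, after 22 weeks of water), 57 (S1-57, after 47) and 78 (S1-78, after 68). Of the S2 arm, which had DCA for 32 weeks, 6 libraries were used at week 32 (S2-32, still on DCA) and 4 at week 78 (S2-78, after 46 weeks of water). Of the S3 arm, which had DCA for 57 weeks, 5 were used at week 57 (S3-57, still on DCA) and 4 at week 78 (S3-78, after 21 weeks of water). Direct-78 had DCA for all 78 weeks (3 libraries), and the water groups were Control-10 (4 libraries) and Control-32, Control-57 and Control-78 (6 each). The comparisons ask which transporters differ while DCA is given and which still differ after it is stopped.

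The 68 libraries held 541245 to 4285848 counts with a median of 2162678, and the 39 SLC genes took 0.375% to 1.7% of them, with a median of 1.16%. At week 10 the totals were 1233543 to 2206672 in Control-10 and 1441966 to 2290453 in S1-10. At week 32 they were 721372 to 2731045 in Control-32, 2979117 to 3914572 in S1-32 and 1484484 to 3049702 in S2-32. S1-32 was thus sequenced more deeply than every Control-32 library. At week 57 the totals were 2223516 to 4153377 in Control-57, 919268 to 3032863 in S1-57 and 1123317 to 2030701 in S3-57. At week 78 they were 2098777 to 4285848 in Control-78, 1665464 to 3301147 in S1-78, 1187668 to 2475996 in S2-78, 1154431 to 1936370 in S3-78 and 541245 to 699825 in Direct-78. S3-57, S3-78 and Direct-78 all lay below the lowest total of their controls, so in these groups and in S1-32 depth and treatment cannot be told apart. With the log2 total count as a covariate, 0 SLC genes were called in S1-32 by edgeR, where 1.63% of all genes were. In that fit 7 SLC genes and 374 of 2205 genes had an unadjusted p under 0.05. In Direct-78 the count of SLC genes called by edgeR was also 0 (0.499% of all genes), with 10 SLC genes and 324 of 2205 genes at an unadjusted p under 0.05. In S3-78 the count was 1 (5.31% of all genes). In S3-57 the count went the other way, from 2 to 3, and the share of all genes from 6.39% to 10.1%.

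Levels are given as TMM-normalized CPM, counts scaled to a common library size with no correction for differences between probes, so they are not compared between genes. The liver label was checked with 12 hepatocyte markers, of which 7 are on the panel and all 7 had counts in every group. TTR was the most abundant by the mean over the 68 libraries. Their summed level ran from 15371 to 86249.8 CPM over the 68 libraries. In Direct-78 it was 22202, 30967 and 35702 CPM and in Control-78 45804 to 66341 with a median of 54453. All 3 Direct-78 libraries lay below every Control-78 library. The S3-78 libraries had 29597, 38927, 43250.4 and 47862 CPM, of which 3 lay below every control. At week 10 the sums were 63614 to 80107 CPM in S1-10, above all of Control-10 with 15371, 53405, 54701 and 62887. The part of these differences in the transporter results was not tested. In bulk samples, fewer cells of a type and less RNA per cell cannot be told apart.

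A few libraries stand apart. Among the 68 libraries used, those of mouse 75 (Control-32), mouse 66 (Direct-78) and mouse 47 (S2-78) had the lowest squared Spearman correlations, 0.619, 0.633 and 0.696. These were taken with the mean over all 78 libraries. Mouse 68 (Control-10) held the lowest hepatocyte sum of Control-10, 15371 CPM, and a sum of the 5 periportal markers of 251 CPM, where the other 3 had 9259.7, 11257 and 13942. Without it, 0 SLC genes were called in S1-10 by edgeR and 8 had an unadjusted p under 0.05. The shares of all genes in that fit are not given here. Pancreas acinar genes, 11 of a list of 12 on the panel and 5 of them kept, summed to 22299.7 CPM in mouse 36 (S1-78), 10419 in mouse 47 (S2-78), 4598 in mouse 17 (S1-10) and 2603 in mouse 19 (S1-32). In Control-78 the same sum was 6.34 to 23.4 CPM, below the 51.3, 55.4 and 209 of Direct-78, and the part of this difference in the SLC calls was not tested. Without mice 17, 19, 36 and 47, all 13 SLC calls that involve S1-10 or S1-32 were still made. Without mice 47, 66 and 75, the number of SLC genes called fell from 17 to 9 in Direct-78 (all genes from 24.4% to 13.7%) and from 2 to 0 by edgeR in S2-32 (all genes from 10.7% to 7.35%). In S2-32, 6 SLC genes and 534 of 2205 genes then had an unadjusted p under 0.05 from edgeR. Both sets of libraries were chosen after the data were seen.

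The median level over all 68 libraries, with the lowest and highest in parentheses, is given in CPM. Among carriers of bile acids, organic anions and organic cations, it was SLC10A1 321 (8.48 to 654), SLC10A2 46.5 (0 to 541), SLC22A17 18.4 (0 to 94.3), SLC22A30 104 (26 to 302), SLC22A7 71 (0 to 182), SLC47A1 275 (16.2 to 641), SLC51B 1.19 (0 to 13.6), SLCO1B2 343 (5.93 to 861) and SLCO2B1 336 (31.8 to 634). The fatty acid carriers had SLC27A1 76.7 (20.7 to 264), SLC27A2 3531 (665 to 9495) and SLC27A3 23.9 (1.33 to 112). SLC51B was without a count in 25 libraries, SLC10A2 in 3, SLC22A7 in 2 and SLC22A17 in 1, while the other genes of these 2 classes had counts in every library. Carriers of glucose, glucose 6-phosphate and monocarboxylates had SLC16A3 5.15 (0 to 24.4), SLC16A7 83 (41.4 to 253), SLC2A2 63.1 (0 to 279) and SLC37A4 58.5 (0 to 175). The amino acid, creatine and amine carriers had SLC18A2 2.68 (0 to 17.6), SLC1A2 47.9 (0 to 261), SLC1A3 3.59 (0 to 43.8), SLC1A4 2.51 (0 to 24.1) and SLC6A8 60.6 (17.7 to 2195). For metal ion carriers the values were SLC11A2 177 (0 to 507), SLC30A5 381 (20.3 to 1228), SLC30A7 48.1 (0 to 95.3) and SLC39A7 1036 (222 to 2026). SLC18A2 was the sparsest of these, with no count in 22 libraries. Mitochondrial carriers had SLC25A13 456 (30.2 to 912), SLC25A14 28.8 (0 to 76.7), SLC25A16 540.0 (31.1 to 1032), SLC25A31 1.90 (0 to 29.4), SLC25A4 5.37 (0 to 63.7) and SLC25A46 286 (79.6 to 447). The nucleotide sugar family, SLC35, had SLC35A1 124 (10.8 to 299.6), SLC35A3 482 (128 to 919.9), SLC35B1 4.09 (0 to 31) and SLC35F2 1.89 (0 to 17.1), and the sulfate carrier and the multivitamin carrier had SLC26A2 16.2 (4.02 to 73.2) and SLC5A6 54.5 (17.2 to 123). The scaffold gene had SLC9A3R1 852 (296 to 1935). Each of these genes thus varied several-fold or more between livers, and 18 of the 39 lacked a count in at least 1 library.

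A gene was called when its edgeR adjusted p, over the 2205 genes of the comparison, was 0.05 or less and its fold change was beyond 1.5. A gene without a call may still differ. In S1-10, 2 of 39 SLC genes were called (1 higher, 1 lower) where 5.49% of all genes were. In S1-32, 11 of 39 SLC genes were called (6 higher, 5 lower) where 29.1% of all genes were. In S1-57, 2 of 39 SLC genes were called (0 higher, 2 lower) where 1.59% of all genes were. In S1-78, edgeR called 0 of 39 SLC genes where 1.81% of all genes were called. There 8 SLC genes and 299 of 2205 genes had an unadjusted p under 0.05 from edgeR, and DESeq2 called 1 SLC gene and 3.85% of all genes. In S2-32, 2 of 39 SLC genes were called (2 higher, 0 lower) where 10.7% of all genes were. In S2-78, edgeR called 0 of 39 SLC genes where 1.63% of all genes were called. There 10 SLC genes and 344 of 2205 genes had an unadjusted p under 0.05 from edgeR, and DESeq2 called 2 SLC genes and 4.4% of all genes. In S3-57, 2 of 39 SLC genes were called (0 higher, 2 lower) where 6.39% of all genes were. In S3-78, 7 of 39 SLC genes were called (1 higher, 6 lower) where 13.3% of all genes were. In Direct-78, 17 of 39 SLC genes were called (2 higher, 15 lower) where 24.4% of all genes were. The share of SLC genes called was 43.6% in Direct-78 and 28.2% in S1-32, where 24.4% and 29.1% of all genes were. With RLE factors it was 28.2% and 33.3%, where 21.6% and 32% of all genes were. In fits of only the compared groups it was 17.9% and 30.8%, where 14.1% and 29.9% of all genes were. Leaving out 1 library changed the counts by edgeR, in S1-10 to 0 without mouse 68 and 1 without mouse 16. With all libraries, 10 SLC genes and 464 of 2205 genes had an unadjusted p under 0.05 in S1-10 from edgeR. In S1-57 the count was 0 without any 1 of mice 25, 27, 29, 30, 82 and 83 and 1 without any 1 of mice 28, 80 and 81. In S2-32 it was 0 without any 1 of mice 38, 75, 76 and 78 and 1 without mouse 37. In S3-57 it was 0 without mouse 51 and 1 without any 1 of mice 53, 81 and 83. In S3-78 it was 3 without mouse 59 and 11 without mouse 86, and in Direct-78, which shares the 6 Control-78 libraries, 7 without mouse 64 and 8 without mouse 66. For fits that left out 1 library, here and elsewhere, the share of all genes called is not given. Counts from them thus do not tell a change in SLC genes from one over all genes.

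Of the 39 SLC genes, 27 (69.2%) were called in at least 1 of the 9 comparisons with age-matched water, as were 1259 of 2205 genes (57.1%). 18 were called in 1 comparison, 5 in 2, 1 in 3 and 3 in 4, which makes 43 calls, 12 higher and 31 lower. The 12 without a call were SLC10A1, SLC18A2, SLC1A3, SLC1A4, SLC25A4, SLC27A3, SLC2A2, SLC35B1, SLC35F2, SLC37A4, SLC51B and SLCO1B2. SLC10A2, SLC27A1, SLC30A7 and SLC9A3R1 were called in both directions, in different comparisons. In the heatmap of changes, most dots lie in the S1-32, S3-78 and Direct-78 columns.

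**Figure D1:**
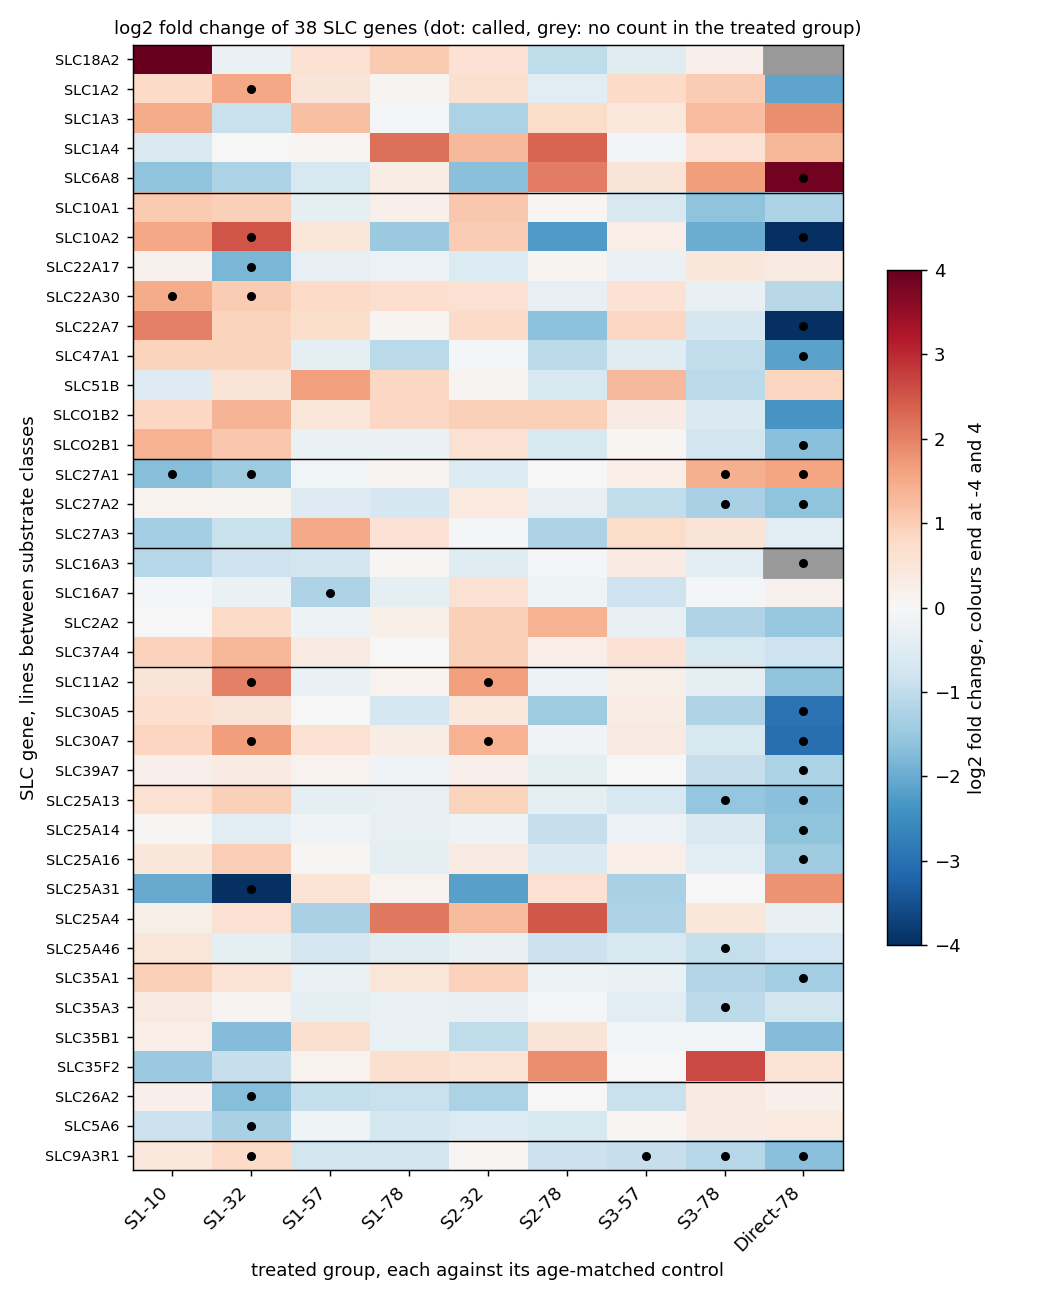
Log2 fold change (colour, ends at -4 and 4) of 38 SLC genes in the 9 treated groups (relative to water of the same week), with a dot for each call and grey where the treated group has no count. Direct-78 has 16 dots and S1-32 has 11.

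The SLC genes were also set against the median log2 fold change of all genes, since RLE scaling, the alternative to TMM, moved that median by more than 0.1 in 6 of the 9 groups. In S1-10 the median was 0.37 for SLC genes and -0.03 for all genes, by RLE 0.27 and -0.11, and 29 of 39 lay above the latter by TMM and 28 by RLE. In S1-32 the median was 0.34 for SLC genes and 0.053 for all genes, by RLE 0.26 and -0.072, and 22 of 39 lay above the latter by both. In S2-32 the median was 0.41 for SLC genes and 0.045 for all genes, by RLE 0.32 and -0.063, and 24 of 39 lay above the latter by both. In these 3 groups, the SLC median lay above that of all genes with both scalings. In S1-57 the median was -0.13 for SLC genes and 0.068 for all genes, by RLE -0.066 and 0.18, and 16 of 39 lay above the latter by both. In S1-78 the median was -0.018 for SLC genes and 0.07 for all genes, by RLE 0.046 and 0.15, and 18 of 39 lay above the latter by both. In S2-78 the median was -0.22 for SLC genes and 0.056 for all genes, by RLE -0.045 and 0.27, and 12 of 39 lay above the latter by both. For these 3 groups, sampled 46 to 68 weeks after DCA was stopped, the SLC median lay below that of all genes with both scalings. In S3-57 the median was 0.013 for SLC genes and 0.0079 for all genes, by RLE 0.054 and 0.056, and 20 of 39 lay above the latter by TMM and 19 by RLE. In S3-78 the median was -0.56 for SLC genes and 0.067 for all genes, by RLE -0.38 and 0.27, and 12 of 39 lay above the latter by both. In Direct-78 the median was -1.26 for SLC genes and -0.33 for all genes, by RLE -0.95 and 0.069, and 12 of 39 lay above the latter by both. The S3-57 medians differed by less than 0.01, with opposite signs by TMM and RLE, while in S3-78 and Direct-78 27 of 39 SLC genes lay below the median of all genes with both. In Direct-78 the calls over all genes were 126 higher and 413 lower by TMM but 221 higher and 256 lower by RLE, and the SLC calls were 2 higher and 15 lower by TMM and 2 higher and 9 lower by RLE. Genes without a call in the RLE fit of Direct-78 included SLC25A13, SLC25A14, SLC25A16, SLC35A1 and SLCO2B1. Putting SLC16A3 and SLC18A2, which had no count in Direct-78, at their bounds left the SLC median there at -1.26. The 7 hepatocyte markers had medians of 0.59 in S1-10, 0.66 in S1-32, 0.75 in S2-32, -0.91 in S3-78 and -1.40 in Direct-78 by TMM, and their part in the SLC medians was not tested. The plot of medians shows the values by TMM and RLE.

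The distance between the medians of the SLC genes and of all genes changed with the fit. With the log2 total count as a covariate, the SLC median was 0.022 against -0.053 for all genes in S1-32 and -0.54 against -0.21 in Direct-78, so the difference went from 0.29 to 0.075 and from -0.93 to -0.33. In S1-57 it went from -0.19 to -0.048, in S2-78 from -0.27 to -0.12 and in S3-57 from 0.0047 to 0.029, and in S1-10, S2-32, S3-78 and S1-78 it was 0.36, 0.36, -0.55 and -0.11. Without mice 47, 66 and 75 the medians were 0.24 against 0.12 in S2-32, a difference of 0.12 where it was 0.36 with all libraries, and in S1-32 the difference rose to 0.49. All genes with a count gave 0.62 in S1-32, and all 78 libraries gave -0.51 in S2-78. Leaving out 1 library moved the difference by over 1.5 times in S1-32 (0.16 without mouse 74 and 0.48 without mouse 75), S2-32 (0.22 without mouse 41 and 0.12 without mouse 75) and S2-78 (-0.43 without mouse 44 and -0.44 without mouse 86). For S1-57 these were -0.081 without mouse 26, -0.12 without mouse 27, -0.30 without mouse 30 and -0.13 without mouse 79, and for S1-78, from -0.088, -0.19 without mouse 31, -0.26 without mouse 34, -0.14 without mouse 36, -0.20 without mouse 85, -0.14 without mouse 86 and -0.23 without mouse 88. The S3-57 difference changed sign between such fits, from -0.20 without mouse 81 to 0.21 without mouse 51.

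**Figure D2:**
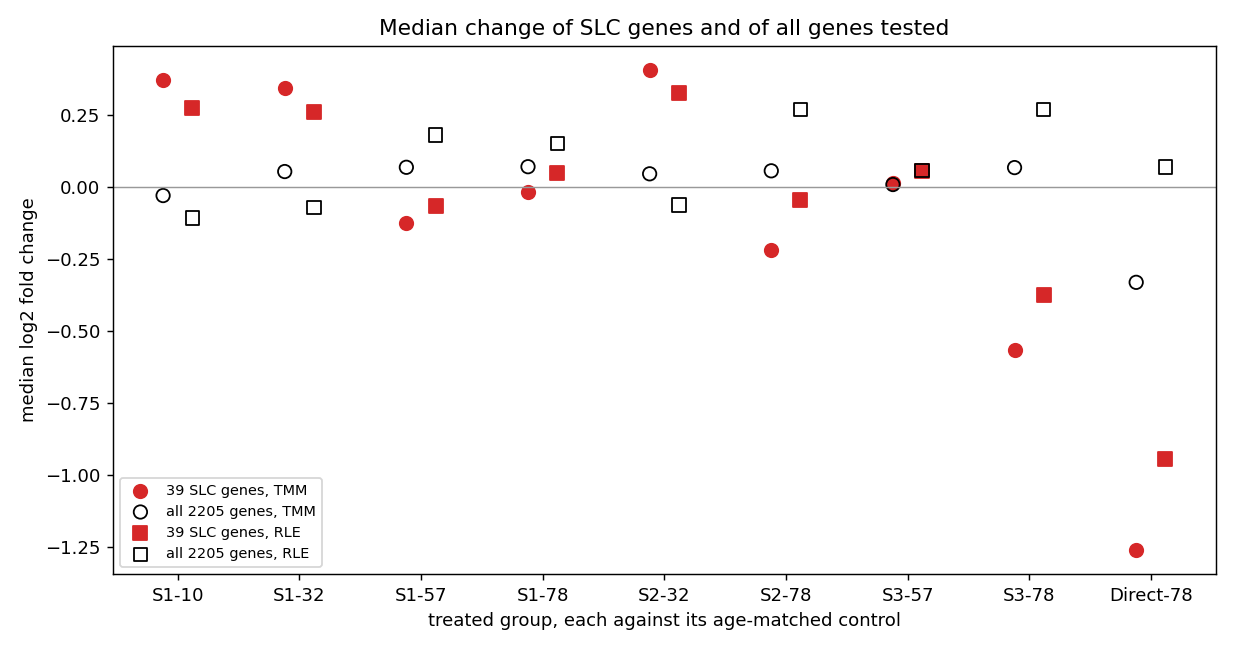
Median log2 fold change of the 39 SLC genes (red) and of all 2205 genes (open) in each treated group relative to water of the same week, by TMM (circles) and RLE (squares). In Direct-78 the SLC median is -1.26 by TMM and -0.95 by RLE.

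SLC10A2 (Slc10a2, ENSMUSG00000023073, chromosome 8 from 5083219 to 5105351) is the sodium-dependent carrier that recovers bile acids in the ileum and, in the liver, is known from bile duct cells. SLC10A2 had 0 to 38.9 CPM in the 6 libraries of Control-32 (median 15.8), 76.7 to 149 in the 6 of S1-32 (median 95.9), and 23.4 to 54.5 in the 6 of S2-32 (median 36.3). Every S1-32 library lay above every Control-32 library, mouse 73 of Control-32 had no count, and S2-32 overlapped Control-32 and lay below S1-32. The log2 fold change in S1-32 was 2.51 ± 0.67 (SE, adjusted p = 0.00527 from edgeR, 6 of 6 libraries above the Control-32 median). The SLC10A2 call in S1-32 held in each of the 12 fits that left out 1 library. SLC10A2 had 9.18 to 541 CPM in the 6 libraries of Control-78 (median 84.6), and 0, 0 and 27 in the 3 of Direct-78. Mice 64 and 66 of Direct-78 had no count, mouse 65 lay above the lowest control, and mouse 90 of Control-78 lay far above its group. In Direct-78 the log2 fold change was -4.14 ± 1.00 (SE, adjusted p = 0.00299 from edgeR, 3 of 3 libraries below the Control-78 median). The SLC10A2 call in Direct-78 held in each of the 9 fits that left out 1 library, and the log2 fold change was -3.52 without mouse 64, -3.54 without mouse 66 and -3.15 without mouse 90. Without mouse 65 the other 2 Direct-78 libraries held no count of it. The 3 cholangiocyte markers on the panel, of 9 written down, summed to 21.1 to 89.9 CPM in Control-32 and 85.8 to 128 in S1-32. None of the 3 was at 0 there, and SPP1 was the most abundant by the mean over the 68 libraries. In Direct-78 their sum was 21.6, 119 and 262 CPM against 20.9 to 411 in Control-78. That sum holds opposite calls from edgeR, KRT19 2.94 (adjusted p = 0.0344) and SPP1 -3.63 (adjusted p = 0.0223). Both calls ended without mouse 64 or mouse 66. By gene, 1 of the 3 was above 0 and 2 below in S1-32, with a median log2 fold change of -0.62 and 0 called. The part of bile duct content in the SLC10A2 results was not tested.

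SLC22A7 (Slc22a7, ENSMUSG00000067144, chromosome 17 from 46432183 to 46438457) carries organic anions such as glutamate, nucleotides and some drugs at the hepatocyte's blood side, and it was chosen for description by library after its values were seen. SLC22A7 had 40.9 to 158 CPM in the 6 libraries of Control-78 (median 94), 9.01, 34.7, 38.3 and 177 in the 4 of S3-78, and 0, 0 and 14.8 in the 3 of Direct-78. Mice 65 and 66 of Direct-78 had no count, the Direct-78 libraries lay below every Control-78 library, and S3-78 overlapped both groups. In Direct-78 the log2 fold change against Control-78 was -4.25 ± 0.951 (SE, adjusted p = 0.00148 from edgeR, 3 of 3 libraries below the Control-78 median). The SLC22A7 call against Control-78 held in each of the 9 fits that left out 1 library, and the log2 fold change was -3.50 without mouse 65. Without mouse 64 the other 2 Direct-78 libraries held no count of it. SLC22A7 had 17.1, 25.3, 27.1 and 52.1 CPM in the 4 libraries of Control-10, and 87.1 to 182 in the 6 of S1-10 (median 121). At week 10 the order was the opposite, with every S1-10 library above every Control-10 library. That rise, 2.02 ± 0.704 (SE, adjusted p = 0.0765 from edgeR, 6 of 6 libraries above the Control-10 median), was not called. SLC22A30 (Slc22a30, ENSMUSG00000052562, chromosome 19 from 8335371 to 8405111) is a lesser known relative in a cluster of similar Slc22 genes on that chromosome, and whether its probe tells them apart was not tested. SLC22A30 had 26, 82.3, 101 and 103 CPM in the 4 libraries of Control-10, and 168 to 302 in the 6 of S1-10 (median 199.5). SLC22A30 had 40.2 to 131 CPM in the 6 libraries of Control-32 (median 101), and 151 to 237 in the 6 of S1-32 (median 159.8). Each S1 library lay above each control library of its week, as the hepatocyte sums did at week 10, and their part in these rises was not tested. The log2 fold change was 1.48 ± 0.418 (SE, adjusted p = 0.0266 from edgeR, 6 of 6 libraries above the Control-10 median) in S1-10. In S1-32 it was 1.01 ± 0.359 (SE, adjusted p = 0.0312 from edgeR, 6 of 6 libraries above the Control-32 median). The SLC22A30 call in S1-10 ended without mouse 16 or mouse 68, the highest adjusted p being 0.31 from edgeR at a log2 fold change of 1.19 without mouse 68. The SLC22A30 call in S1-32 ended without any 1 of mice 22, 24, 76 and 78, the highest adjusted p being 0.112 from edgeR at a log2 fold change of 0.76 without mouse 78. The plot of SLC10A2, SLC22A7, SLC30A5 and SLC6A8 shows the libraries without a count at the bottom of the axis.

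**Figure D3:**
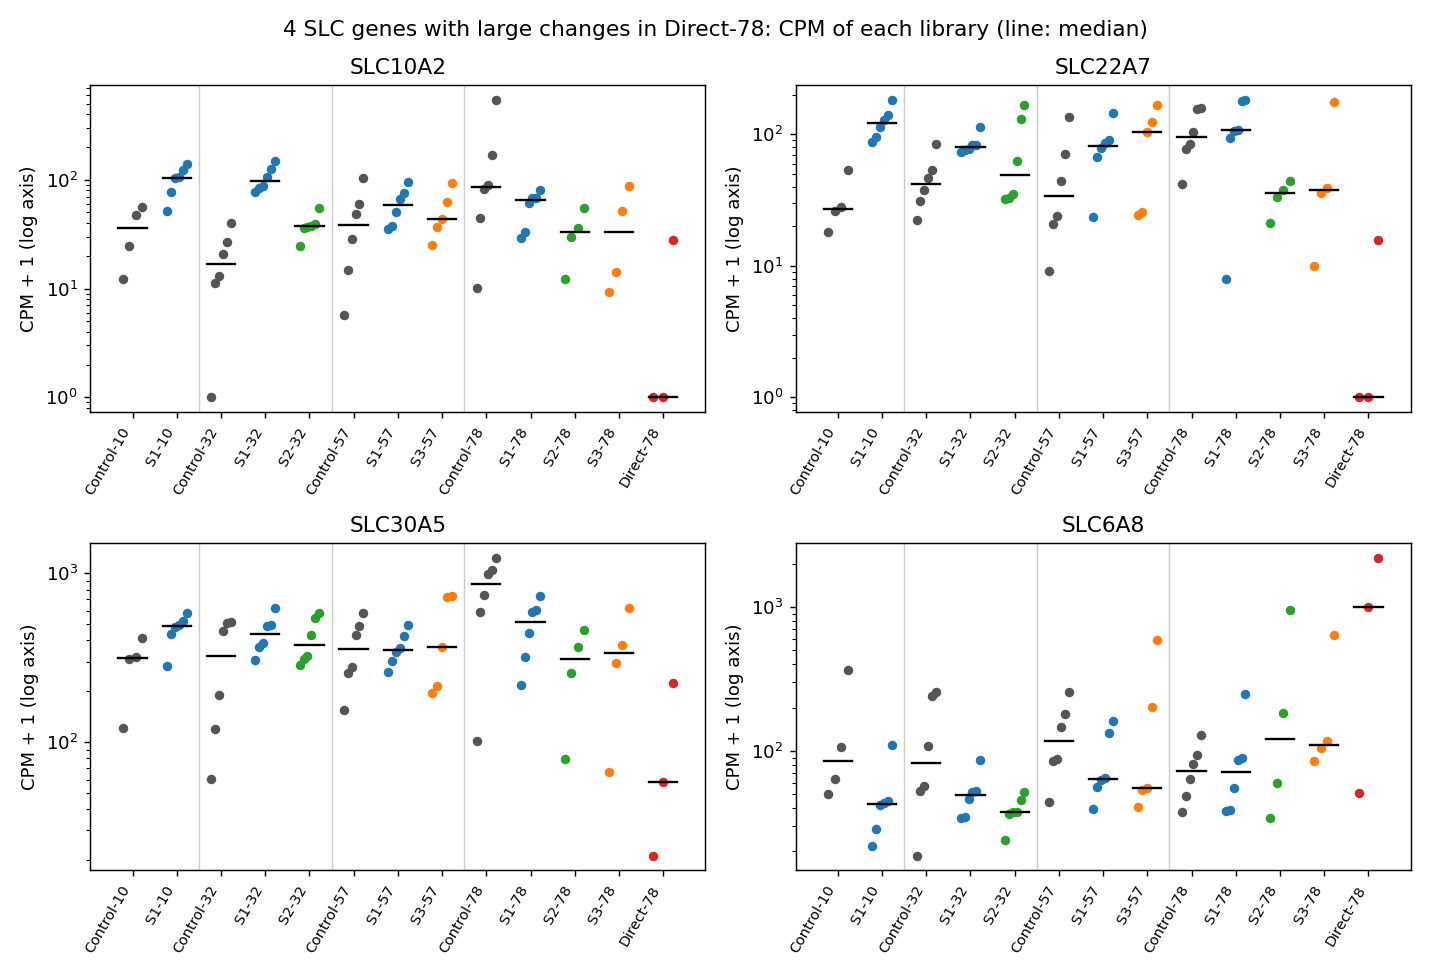
CPM + 1 (log axis) of each library by group, ordered by week, for SLC10A2, SLC22A7, SLC30A5 and SLC6A8, with the median as a line. In Direct-78, 2 of 3 libraries have no count of SLC10A2 and of SLC22A7, and SLC6A8 reaches 2195 CPM.

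SLC47A1, SLCO2B1 and SLC22A17 were called in 1 comparison each, given as log2 fold changes. SLC47A1, which exports organic cations in exchange for protons, changed by -2.13 ± 0.654 (SE, adjusted p = 0.016 from edgeR, 3 of 3 libraries below the Control-78 median) in Direct-78. The SLC47A1 call ended without mouse 64 or mouse 66, the highest adjusted p being 0.113 from edgeR at a log2 fold change of -1.59 without mouse 66, and the log2 fold change was -3.32 without mouse 65. SLCO2B1, an uptake carrier for steroid sulfates and other organic anions, changed by -1.67 ± 0.622 (SE, adjusted p = 0.0428 from edgeR, 3 of 3 libraries below the Control-78 median) in Direct-78. The SLCO2B1 call ended without any 1 of mice 64, 66, 85, 89 and 90, the highest adjusted p being 0.214 from edgeR at a log2 fold change of -1.26 without mouse 64, and the log2 fold change was -2.50 without mouse 65. SLC22A17, a receptor for the iron carrier protein lipocalin 2, changed by -1.82 ± 0.603 (SE, adjusted p = 0.0203 from edgeR, 6 of 6 libraries below the Control-32 median) in S1-32. The SLC22A17 call held in each of the 12 fits that left out 1 library. SLC10A1, the main sodium-dependent bile acid uptake carrier of hepatocytes, was not called, with 1.03 in S1-10 (adjusted p = 0.392 from edgeR, 6 of 6 above the control median) and -1.62 in S3-78 (adjusted p = 0.109, 4 of 4 below). SLCO1B2, the sodium-independent uptake carrier of bile acids and drugs, had -2.37 in Direct-78 (adjusted p = 0.0524 from edgeR, 3 of 3 below the control median). With the log2 total count as a covariate, the Direct-78 values of SLC47A1 and SLCO2B1 became positive, 0.42 and 0.44. SLC51B, a subunit of the basolateral bile acid exporter, was not called either, and its partner SLC51A was removed by the filter.

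Of 27 genes written down for bile acid synthesis, conjugation, export and sensing, 13 are on the panel and all were kept, and 8 of 117 tests over the 9 comparisons were called (3 higher, 5 lower), or 6.84%, where 10.5% of the 19845 tests over all genes were. From edgeR, the log2 fold changes in Direct-78 were ABCB11 -2.52 (adjusted p = 0.0156), ABCC2 -2.37 (adjusted p = 0.0418), BAAT -2.12 (adjusted p = 0.00175) and HNF4A -2.19 (adjusted p = 0.0137). In S1-32 they were ABCB11 1.81 (adjusted p = 0.0146) and NR1H4 2.12 (adjusted p = 0.0343) from edgeR. ABCB11, the bile salt export pump, was thus called in the same groups and directions as SLC10A2. In S2-32 NR1I2, a xenobiotic sensor, was called with 1.47 (adjusted p = 0.0032 from edgeR), and in S3-78 BAAT, which conjugates bile acids, with -1.67 (adjusted p = 0.00531). The median of the 13 in Direct-78 was -0.69, where that of all genes was -0.33. The call of ABCB11 in Direct-78 ended without mouse 64 or 66 (adjusted p up to 0.0938, at -2.20 without mouse 64), that of ABCC2 in Direct-78 ended without any 1 of mice 64, 66, 85, 87, 89 and 90 (adjusted p up to 0.172, at -2.004 without mouse 64), that of HNF4A in Direct-78 ended without mouse 64 or 66 (adjusted p up to 0.0888, at -1.84 without mouse 66) and that of NR1H4 in S1-32 ended without any 1 of mice 22, 73, 75, 76, 77 and 78 (adjusted p up to 0.0805, at 1.90 without mouse 78) from edgeR. Log2 fold changes also moved, to -3.14 for ABCB11 in Direct-78 without mouse 65 and 3.60 for NR1H4 in S1-32 without mouse 74.

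SLC27A1 (Slc27a1, ENSMUSG00000031808, chromosome 8 from 71568882 to 71587302) and SLC27A2 (Slc27a2, ENSMUSG00000027359, chromosome 2 from 126552407 to 126588243) encode fatty acid transport proteins 1 and 2, which couple uptake of long-chain fatty acids to their activation with coenzyme A. SLC27A1 is best known from muscle and fat and SLC27A2 from liver and kidney. Their promoters are shown because the genes moved in opposite directions in the last groups, with 250 bases before the start and 50 after it, from RefSeq sequences of build GRCm38.p6. Slc27a1 has 3 entries and the outermost is shown (chr8:71568621-71568920, plus strand), and Slc27a2 has 1 (chr2:126552774-126553073, plus strand). Capitals mark AGGTCA, the core of nuclear receptor binding sites such as those of PPARA, found on either strand. It occurs once in the Slc27a2 window, where it reads TGACCT on the strand printed, and not in that of Slc27a1, and 16.3% of all 32851 promoters of 300 bases hold it. A match only describes these letters.
Slc27a1: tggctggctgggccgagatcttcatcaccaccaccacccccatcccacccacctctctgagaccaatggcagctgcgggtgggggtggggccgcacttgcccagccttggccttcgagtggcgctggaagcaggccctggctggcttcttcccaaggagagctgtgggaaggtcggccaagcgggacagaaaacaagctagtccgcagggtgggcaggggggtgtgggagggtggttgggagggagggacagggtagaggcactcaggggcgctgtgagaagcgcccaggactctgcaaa
Slc27a2: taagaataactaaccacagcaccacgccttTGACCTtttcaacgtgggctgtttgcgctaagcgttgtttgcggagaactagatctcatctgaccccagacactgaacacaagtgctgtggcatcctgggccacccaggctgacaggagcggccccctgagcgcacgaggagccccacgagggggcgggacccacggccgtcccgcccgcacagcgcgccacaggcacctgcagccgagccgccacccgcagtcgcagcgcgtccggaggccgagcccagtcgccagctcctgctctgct

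In S1 livers SLC27A1 was low early. SLC27A1 had 71.8, 88.3, 107 and 249.5 CPM in the 4 libraries of Control-10, and 25.9 to 58 in the 6 of S1-10 (median 38.5). SLC27A1 had 58 to 171 CPM in the 6 libraries of Control-32 (median 90.7), and 20.7 to 60.3 in the 6 of S1-32 (median 39.3). All S1-10 libraries lay below every Control-10 library, and at week 32 only mouse 22 of S1-32 reached the lowest control. In S1-10 the log2 fold change was -1.69 ± 0.386 (SE, adjusted p = 0.00649 from edgeR, 6 of 6 libraries below the Control-10 median). In S1-32 it was -1.44 ± 0.356 (SE, adjusted p = 0.00296 from edgeR, 6 of 6 libraries below the Control-32 median). The SLC27A1 call in S1-10 ended without mouse 68 (adjusted p = 0.25 from edgeR, log2 fold change -1.16). The SLC27A1 call in S1-32 held in each of the 12 fits that left out 1 library. SLC27A1 had 46.7 to 140.2 CPM in the 6 libraries of Control-78 (median 56.1), 123, 179, 221 and 227 in the 4 of S3-78, and 131, 244 and 264 in the 3 of Direct-78. At week 78 the treated libraries were the high ones, and without mouse 86, the highest control, neither treated group would overlap Control-78. The log2 fold change in S3-78 was 1.41 ± 0.384 (SE, adjusted p = 0.00969 from edgeR, 4 of 4 libraries above the Control-78 median). In Direct-78 it was 1.59 ± 0.411 (SE, adjusted p = 0.00518 from edgeR, 3 of 3 libraries above the Control-78 median). The SLC27A1 call in S3-78 held in each of the 10 fits that left out 1 library. The SLC27A1 call in Direct-78 held in each of the 9 fits that left out 1 library. With the log2 total count as a covariate the Direct-78 value was -0.069. S2-32, on DCA like S1-10 but sampled at week 32, had 35.2 to 112 CPM and was not called (-0.53, adjusted p = 0.296 from edgeR, 5 of 6 below the control median).

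SLC27A2 had 3536 to 5782 CPM in the 6 libraries of Control-78 (median 4678), 666, 1775, 1794 and 3388 in the 4 of S3-78, and 741, 967 and 2889 in the 3 of Direct-78. All treated libraries lay below the Control-78 libraries, with mouse 59 of S3-78 and mouse 66 of Direct-78 the lowest of their groups. In S3-78 the log2 fold change was -1.30 ± 0.445 (SE, adjusted p = 0.0405 from edgeR, 4 of 4 libraries below the Control-78 median). In Direct-78 it was -1.61 ± 0.505 (SE, adjusted p = 0.0175 from edgeR, 3 of 3 libraries below the Control-78 median). The SLC27A2 call in S3-78 ended without any 1 of mice 55, 59, 60, 85, 89 and 90, the highest adjusted p being 0.174 from edgeR at a log2 fold change of -1.01 without mouse 59. The SLC27A2 call in Direct-78 ended without mouse 64 or mouse 66, the highest adjusted p being 0.122 from edgeR at a log2 fold change of -1.25 without mouse 66, and the log2 fold change was -2.26 without mouse 65. In the S1 arm the log2 fold change was 0.14 in S1-10 and 0.12 in S1-32. SLC27A3, an acyl-CoA synthetase of the same family, was not called in any of the 9 comparisons.

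Of 23 genes written down for fatty acid uptake, binding and activation, 14 are on the panel and 13 were kept, and 9 of 117 tests were called (3 higher, 6 lower), or 7.69% against 10.5% over all genes. In Direct-78 the log2 fold changes from edgeR were ACADM 1.35 (adjusted p = 0.0047), CD36 2.04 (adjusted p = 0.0475) and FABP2 2.35 (adjusted p = 0.0017), all higher, as SLC27A1 was. In S1-32 they were ACADM -1.19 (adjusted p = 0.00304), FABP4 -1.57 (adjusted p = 0.0156) and FASN -1.82 (adjusted p = 0.0133) from edgeR, all lower, as SLC27A1 was. FABP4, a fatty acid binding protein of fat cells and macrophages, was called with -2.80 in S1-10 (adjusted p = 0.00148 from edgeR) and -1.72 in S3-57 (adjusted p = 0.0383), and HADHA with -1.35 in S3-78 (adjusted p = 0.00832). ACADM, a dehydrogenase of medium-chain fatty acid oxidation, was called in both directions in different groups. The call of CD36 in Direct-78 ended without any 1 of mice 64, 65, 87, 88, 89 and 90 (adjusted p up to 0.116, at 1.75 without mouse 65), that of FABP4 in S1-10 ended without mouse 68 (adjusted p = 0.263, log2 fold change -1.51), that of FABP4 in S1-32 ended without mouse 75 (adjusted p = 0.0584, log2 fold change -1.36), that of FASN in S1-32 ended without mouse 75 (adjusted p = 0.0519, log2 fold change -1.57), that of FABP4 in S3-57 ended without any 1 of mice 49, 50, 51, 53, 80, 81, 82 and 83 (adjusted p up to 0.115, at -1.52 without mouse 82) and that of HADHA in S3-78 ended without mouse 55 (adjusted p = 0.0637, log2 fold change -1.09) from edgeR. Log2 fold changes also moved, to 2.97 for FABP2 in Direct-78 without mouse 86.

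SLC30A5 (Slc30a5, ENSMUSG00000021629, chromosome 13 from 100802648 to 100833427) and SLC30A7 (Slc30a7, ENSMUSG00000054414, chromosome 3 from 115938973 to 116007406) carry zinc into the early secretory pathway, where both load enzymes such as alkaline phosphatase. Their promoters are printed because both genes fell in Direct-78, again as 300 bases of RefSeq sequence on build GRCm38.p6 (chr13:100833378-100833677, minus strand, for Slc30a5 and chr3:116007357-116007656, minus strand, for Slc30a7, each 5′ to 3′ on that strand). Capitals mark the metal response element cores TGCGCNC or TGCACNC on either strand, which 15.4% and 12.6% of promoters hold. The Slc30a5 window has 1 match and the Slc30a7 window has none, which describes the letters in these windows alone.
Slc30a5: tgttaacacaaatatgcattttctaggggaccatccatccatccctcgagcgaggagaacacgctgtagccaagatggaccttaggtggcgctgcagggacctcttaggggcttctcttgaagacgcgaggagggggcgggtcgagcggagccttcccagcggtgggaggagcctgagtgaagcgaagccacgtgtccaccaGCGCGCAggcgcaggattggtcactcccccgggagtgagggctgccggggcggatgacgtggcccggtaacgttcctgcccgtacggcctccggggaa
Slc30a7: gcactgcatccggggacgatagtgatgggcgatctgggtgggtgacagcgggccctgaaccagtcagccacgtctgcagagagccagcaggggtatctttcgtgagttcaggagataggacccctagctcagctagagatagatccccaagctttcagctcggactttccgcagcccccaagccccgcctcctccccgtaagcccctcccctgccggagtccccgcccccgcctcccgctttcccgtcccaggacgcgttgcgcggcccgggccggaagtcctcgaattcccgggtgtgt

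SLC30A7 had 11.5 to 34.6 CPM in the 6 libraries of Control-32 (median 23.1), 52.3 to 85.4 in the 6 of S1-32 (median 72.8), and 32.8 to 81.4 in the 6 of S2-32 (median 56.9). S1-32 lay wholly above Control-32, and of S2-32 only mouse 41 fell within the control range. In S1-32 the log2 fold change was 1.67 ± 0.422 (SE, adjusted p = 0.00351 from edgeR, 6 of 6 libraries above the Control-32 median). In S2-32, which shares these controls, it was 1.38 ± 0.42 (SE, adjusted p = 0.0255 from edgeR, 6 of 6 libraries above the Control-32 median). The SLC30A7 call in S1-32 held in each of the 12 fits that left out 1 library. The SLC30A7 call in S2-32 ended without any 1 of mice 37, 38, 75, 76 and 78, the highest adjusted p being 0.0751 from edgeR at a log2 fold change of 1.25 without mouse 75. SLC30A7 had 19.9 to 88 CPM in the 6 libraries of Control-78 (median 58.7), 33.5, 35, 36.8 and 41.1 in the 4 of S3-78, and 0, 6.76 and 14.8 in the 3 of Direct-78. Direct-78 lay below both other groups, with no count in mouse 64, and S3-78 fell within the control range. Against Control-78 the log2 fold change in Direct-78 was -3.03 ± 0.62 (SE, adjusted p = 0.000697 from edgeR, 3 of 3 libraries below the Control-78 median). The SLC30A7 call in Direct-78 held in each of the 9 fits that left out 1 library, and the log2 fold change was -2.40 without mouse 64 and -3.99 without mouse 65. SLC30A5 was chosen for description by library after its values were seen. SLC30A5 had 101 to 1228 CPM in the 6 libraries of Control-78 (median 860.0), and 20.3, 57.3 and 223 in the 3 of Direct-78. Mouse 86 of Control-78 fell among the Direct-78 libraries, and the other 5 controls lay above all 3. Its log2 fold change was -2.96 ± 0.67 (SE, adjusted p = 0.00159 from edgeR, 3 of 3 libraries below the Control-78 median). The SLC30A5 call in Direct-78 held in each of the 9 fits that left out 1 library, and the log2 fold change was -4.10 without mouse 65.

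SLC11A2 (Slc11a2, ENSMUSG00000023030, chromosome 15 from 100387898 to 100425072) is the proton-coupled importer of iron and other divalent metals. SLC11A2 had 0 to 158 CPM in the 6 libraries of Control-32 (median 37.7), 179.6 to 449.8 in the 6 of S1-32 (median 213), and 162 to 249 in the 6 of S2-32 (median 186). Both treated groups lay above every Control-32 library, mouse 73 of Control-32 had no count, and mouse 20 of S1-32 was far above its group. In S1-32 the log2 fold change was 2.02 ± 0.521 (SE, adjusted p = 0.0041 from edgeR, 6 of 6 libraries above the Control-32 median). In S2-32 it was 1.64 ± 0.515 (SE, adjusted p = 0.0297 from edgeR, 6 of 6 libraries above the Control-32 median). The SLC11A2 call in S1-32 held in each of the 12 fits that left out 1 library. The SLC11A2 call in S2-32 ended without any 1 of mice 38, 75, 76 and 78, the highest adjusted p being 0.0792 from edgeR at a log2 fold change of 1.49 without mouse 78. SLC39A7, which releases zinc from the endoplasmic reticulum to the cytosol, changed by -1.26 ± 0.376 (SE, adjusted p = 0.0132 from edgeR, 3 of 3 libraries below the Control-78 median) in Direct-78. The SLC39A7 call ended without mouse 64 or mouse 66, the highest adjusted p being 0.137 from edgeR at a log2 fold change of -0.85 without mouse 66, and the log2 fold change was -2.03 without mouse 65. Of 16 genes written down for metal ion storage and handling, 3 are on the panel and 3 were kept, and 1 of 27 tests was called (3.7% against 10.5% over all genes), for MT2 (metallothionein 2, which binds zinc) in S2-32 (adjusted p = 0.0148 from edgeR). MT2 had no count in S2-32 and 28 counts in 3 of the 6 Control-32 libraries, so it was at least 17.8-fold lower with S2-32 taken at 3 counts over the group, and without mouse 75 the bound was 9.79-fold and the call ended (adjusted p = 0.0618 from edgeR). The library plot of SLC27A1, SLC9A3R1, SLC30A7 and SLC11A2 shows all groups.

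**Figure D4:**
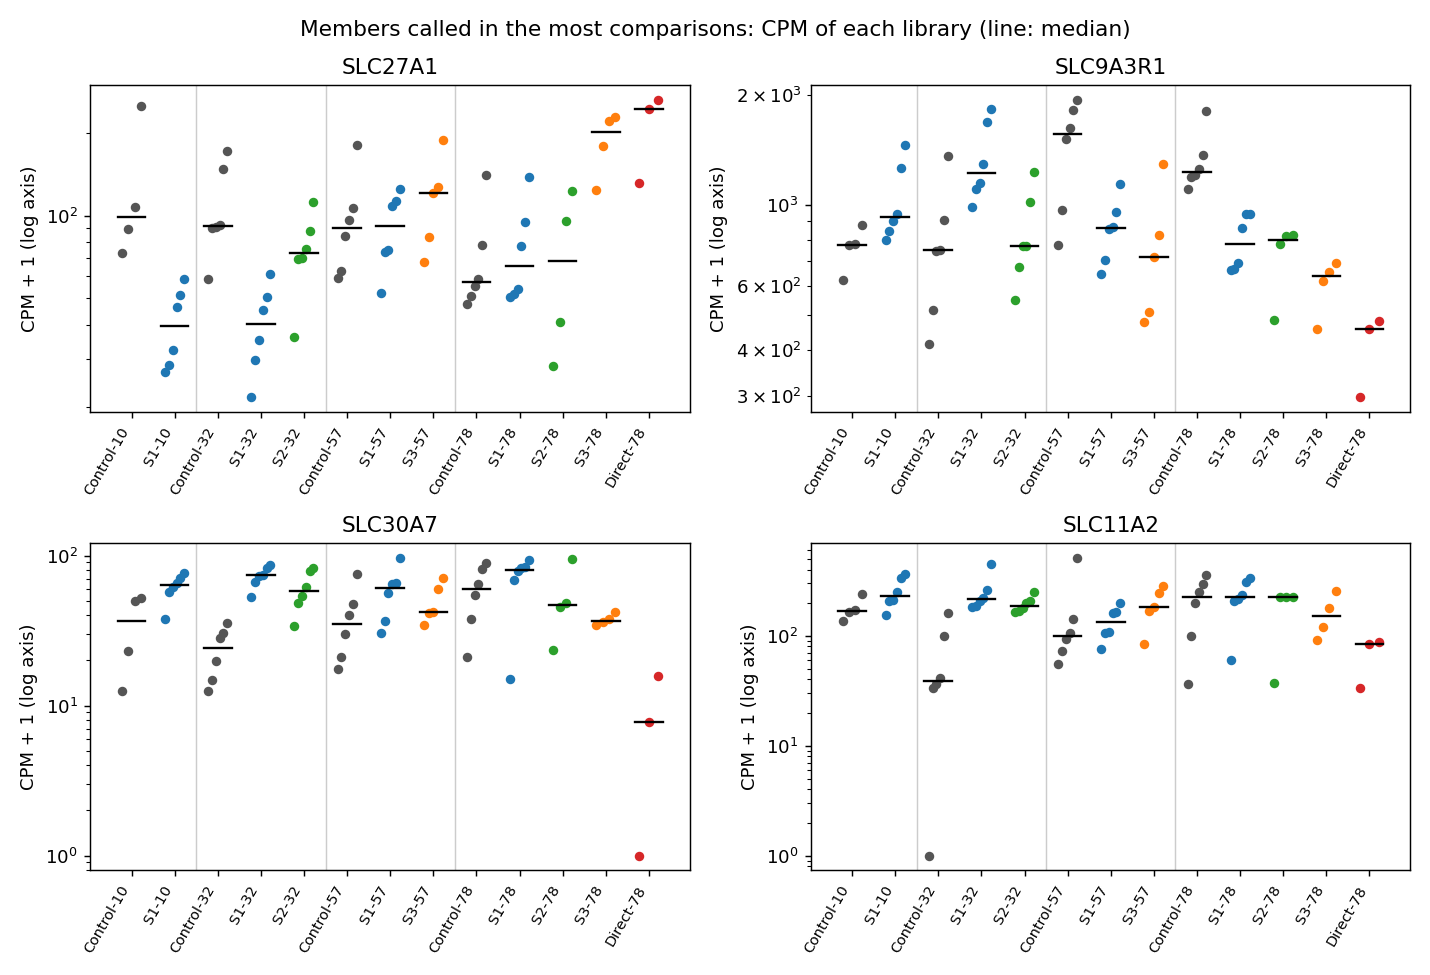
CPM + 1 (log axis) of each library by group, ordered by week, for SLC27A1, SLC9A3R1, SLC30A7 and SLC11A2, with the median as a line. All S3-78 and Direct-78 libraries of SLC9A3R1 lie below the Control-78 libraries, and 1 Direct-78 library has no count of SLC30A7.

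SLC6A8 (Slc6a8, ENSMUSG00000019558, chromosome X from 73673150 to 73682502) takes up creatine, and it was chosen for description by library after its values were seen. SLC6A8 had 36.5 to 128 CPM in the 6 libraries of Control-78 (median 71.5), and 49.9, 1007 and 2195 in the 3 of Direct-78. Mice 64 and 66 of Direct-78 lay far above every control, while mouse 65 lay within the control range. The log2 fold change was 3.87 ± 0.796 (SE, adjusted p = 0.000697 from edgeR, 2 of 3 libraries above the Control-78 median). The SLC6A8 call in Direct-78 held in each of the 9 fits that left out 1 library, and the log2 fold change was 4.60 without mouse 65 and 2.85 without mouse 66. Single libraries of other groups with DCA were also high, with 948 CPM in mouse 47 (S2-78), 636 in mouse 59 (S3-78) and 588 in mouse 54 (S3-57), where the next highest library of the group had 183, 115 and 200.5 CPM. Mice 66 and 47 are among the 3 libraries of low correlation, and each of these groups also held libraries within the range of its controls. In S1-10 the change had the other sign, -1.60 ± 0.732 (SE, adjusted p = 0.194 from edgeR, 5 of 6 libraries below the Control-10 median), and was not called.

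Of 12 genes written down for creatine, methionine and phosphocholine supply, 4 are on the panel and 4 were kept, and 4 of 36 tests were called (3 higher, 1 lower), or 11.1% against 10.5% over all genes. CHKA, choline kinase alpha, had log2 fold changes from edgeR of 2.59 in S1-57 (adjusted p = 0.0288), 2.14 in S3-57 (adjusted p = 0.0375) and -3.56 in Direct-78 (adjusted p = 0.00659). CKM, the creatine kinase of muscle, was called in S1-78 with 8.34 (adjusted p = 0.00389 from edgeR). That value rests on mouse 36, with 2351 CPM where the S1-78 median is 1.93, and it was 1.06 without that mouse (adjusted p = 0.831). The call of CHKA in S1-57 ended without any 1 of mice 27, 29, 30, 80, 81, 82 and 83 (adjusted p up to 0.0916, at 2.43 without mouse 82), that of CHKA in S3-57 ended without any 1 of mice 49, 51, 53, 80, 81, 82 and 83 (adjusted p up to 0.108, at 1.81 without mouse 53) and that of CHKA in Direct-78 ended without mouse 64 (adjusted p = 0.0577, log2 fold change -2.94) from edgeR. Log2 fold changes also moved, to 3.22 for CHKA in S1-57 without mouse 79 and 2.77 for CHKA in S3-57 without mouse 79. CKM is also on the list of brain and muscle markers, of which 5 of 8 are on the panel and 3 were kept, and whose sum in S1-78 was 18.8 to 4122 CPM against 5.84 to 96 in Control-78. SLC1A2, a glutamate carrier that in liver belongs to the hepatocytes around central veins, changed by 1.55 ± 0.589 (SE, adjusted p = 0.0416 from edgeR, 6 of 6 libraries above the Control-32 median) in S1-32. The SLC1A2 call ended without any 1 of mice 20, 22, 23, 24, 73, 75, 76 and 78, the highest adjusted p being 0.0988 from edgeR at a log2 fold change of 1.38 without mouse 75. GLUL, the glutamine synthetase of the same hepatocytes, was also called in S1-32, with 1.08 (adjusted p = 0.0484 from edgeR). SLC1A3 (glutamate), SLC1A4 (neutral amino acids) and SLC18A2 (amines, into vesicles) were not called in the 9 comparisons. Of 16 genes written down for the urea cycle, glutamate and glutamine, 4 are on the panel and 4 were kept, and 3 of 36 tests were called (8.33% against 10.5% over all genes), GLUL as above, CPS1 with 1.41 in S1-32 (adjusted p = 0.0486 from edgeR) and ASS1 with -2.66 in Direct-78 (adjusted p = 0.017). The call of GLUL in S1-32 ended without any 1 of mice 19, 20, 21, 22, 23, 24, 75, 76 and 78 (adjusted p up to 0.127, at 0.88 without mouse 78), that of CPS1 in S1-32 ended without any 1 of mice 19, 21, 22, 23, 24, 73, 75, 76 and 78 (adjusted p up to 0.116, at 1.24 without mouse 75) and that of ASS1 in Direct-78 ended without mouse 64 or 66 (adjusted p up to 0.0961, at -2.28 without mouse 66) from edgeR.

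SLC16A3, an exporter of lactate, had no count in the 3 Direct-78 libraries, and 1.90 to 21.7 CPM in Control-78 with a median of 4.09. That makes it at least 5.68-fold lower in Direct-78, with the group taken at 3 counts over its libraries (adjusted p = 0.0113 from edgeR, 3 of 3 below the control median). The SLC16A3 call ended without mouse 64 or mouse 66, the highest adjusted p being 0.0617 from edgeR without mouse 64. The bound was 3.37-fold without mouse 64 and 3.21-fold without mouse 86, the highest control. With 84 counts in Control-78, the most deeply sequenced group at that week, the gene is near the depth limit. SLC16A7, a high-affinity carrier of pyruvate and lactate, changed by -1.25 ± 0.321 (SE, adjusted p = 0.0288 from edgeR, 6 of 6 libraries below the Control-57 median) in S1-57. The SLC16A7 call ended without any 1 of mice 25, 27, 28, 29, 30, 80, 82 and 83, the highest adjusted p being 0.12 from edgeR at a log2 fold change of -1.01 without mouse 80. SLC2A2, the glucose carrier GLUT2, and SLC37A4, which moves glucose 6-phosphate into the endoplasmic reticulum, were not called, with -1.20 and -0.63 in S3-78. Of 25 genes written down for glucose use and production, 9 are on the panel and 8 were kept, and 5 of 72 tests were called (1 higher, 4 lower), or 6.94% against 10.5% over all genes. From edgeR the calls included PCK2 -2.91 (adjusted p = 0.0338) in S1-10, ALDOA -2.30 (adjusted p = 0.000439) in S1-32, ALDOA -1.31 (adjusted p = 0.0483) in S2-32 and PFKL 1.32 (adjusted p = 0.0272) in Direct-78. The call of PCK2 in S1-10 ended without any 1 of mice 13, 14, 15, 16, 17, 18 and 68 (adjusted p up to 0.912, at -0.41 without mouse 68), that of ALDOA in S2-32 ended without any 1 of mice 37, 38, 39, 40, 41, 75, 76 and 78 (adjusted p up to 0.182, at -1.04 without mouse 75) and that of PFKL in Direct-78 ended without any 1 of mice 64, 66 and 90 (adjusted p up to 0.233, at 0.88 without mouse 64) from edgeR.

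Among the carriers of the inner mitochondrial membrane, SLC25A13 exchanges aspartate for glutamate and feeds both the urea cycle and the malate-aspartate shuttle. It changed by -1.54 ± 0.535 (SE, adjusted p = 0.0425 from edgeR, 4 of 4 libraries below the Control-78 median) in S3-78. In Direct-78 it changed by -1.67 ± 0.604 (SE, adjusted p = 0.0375 from edgeR, 3 of 3 libraries below the Control-78 median). The SLC25A13 call in S3-78 ended without any 1 of mice 55, 59, 60, 85, 87, 89 and 90, the highest adjusted p being 0.162 from edgeR at a log2 fold change of -1.27 without mouse 59. The SLC25A13 call in Direct-78 ended without any 1 of mice 64, 66, 85, 89 and 90, the highest adjusted p being 0.197 from edgeR at a log2 fold change of -1.27 without mouse 66, and the log2 fold change was -2.42 without mouse 65. SLC25A14, an uncoupling protein relative, changed by -1.61 ± 0.607 (SE, adjusted p = 0.0439 from edgeR, 3 of 3 libraries below the Control-78 median) in Direct-78. The SLC25A14 call ended without any 1 of mice 64, 65, 85, 86, 87, 88, 89 and 90, the highest adjusted p being 0.289 from edgeR at a log2 fold change of -0.86 without mouse 65, and the log2 fold change was -2.44 without mouse 66. SLC25A16, a carrier linked to coenzyme A supply, changed by -1.43 ± 0.524 (SE, adjusted p = 0.0389 from edgeR, 3 of 3 libraries below the Control-78 median) in Direct-78. The SLC25A16 call ended without any 1 of mice 64, 66, 85, 89 and 90, the highest adjusted p being 0.251 from edgeR at a log2 fold change of -0.88 without mouse 66, and the log2 fold change was -2.17 without mouse 65. With the log2 total count as a covariate, the Direct-78 values of SLC25A13 and SLC25A16 became positive, 0.66 and 0.15. SLC25A46, an outer membrane protein that acts in mitochondrial fission and fusion, changed by -0.96 ± 0.271 (SE, adjusted p = 0.0125 from edgeR, 4 of 4 libraries below the Control-78 median) in S3-78. The SLC25A46 call ended without mouse 59 (adjusted p = 0.0572 from edgeR, log2 fold change -0.85). SLC25A31, an ADP/ATP carrier known from testis, changed by -4.44 ± 1.31 (SE, adjusted p = 0.00988 from edgeR, 6 of 6 libraries below the Control-32 median) in S1-32. The SLC25A31 call held in each of the 12 fits that left out 1 library, and the log2 fold change was -5.28 without mouse 24. It rests on low values, with 9 counts in S1-32 and 98 in Control-32 and 0.412 CPM as the median of S1-32 and 9.20 of Control-32. SLC25A4, the ADP/ATP carrier of heart and muscle, was not called.

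SLC35A1, which carries CMP-sialic acid into the Golgi apparatus, changed by -1.39 ± 0.529 (SE, adjusted p = 0.0471 from edgeR, 3 of 3 libraries below the Control-78 median) in Direct-78. The SLC35A1 call ended without any 1 of mice 64, 66, 85, 87, 88, 89 and 90, the highest adjusted p being 0.279 from edgeR at a log2 fold change of -0.86 without mouse 66, and the log2 fold change was -2.48 without mouse 65. SLC35A3, which carries UDP-N-acetylglucosamine there, changed by -1.04 ± 0.317 (SE, adjusted p = 0.0202 from edgeR, 4 of 4 libraries below the Control-78 median) in S3-78. The SLC35A3 call ended without mouse 55 or mouse 59, the highest adjusted p being 0.113 from edgeR at a log2 fold change of -0.87 without mouse 55. SLC35B1, which carries ATP into the endoplasmic reticulum, and SLC35F2 were not called. SLC26A2, the sulfate carrier, changed by -1.69 ± 0.458 (SE, adjusted p = 0.00574 from edgeR, 6 of 6 libraries below the Control-32 median) in S1-32. The SLC26A2 call held in each of the 12 fits that left out 1 library. SLC5A6, the sodium-dependent carrier of biotin and pantothenate, changed by -1.30 ± 0.367 (SE, adjusted p = 0.00768 from edgeR, 6 of 6 libraries below the Control-32 median) in S1-32. The SLC5A6 call held in each of the 12 fits that left out 1 library. Both vary with mouse 75 of Control-32, whose removal gave the weakest values named here, -1.28 for SLC26A2 and -1.17 for SLC5A6, with the calls kept.

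SLC9A3R1 (Slc9a3r1, ENSMUSG00000020733, chromosome 11 from 115163341 to 115181181), also known as NHERF1 or EBP50, anchors transporters at the apical and bile canaliculus membranes through PDZ domains. SLC9A3R1 had 1104 to 1808 CPM in the 6 libraries of Control-78 (median 1228), 456, 619, 655 and 691 in the 4 of S3-78, and 296, 455 and 479 in the 3 of Direct-78. Every library of both treated groups lay below every control, with mouse 66 of Direct-78 the lowest. In S3-78 the log2 fold change was -1.13 ± 0.282 (SE, adjusted p = 0.00522 from edgeR, 4 of 4 libraries below the Control-78 median). In Direct-78 it was -1.69 ± 0.324 (SE, adjusted p = 0.000248 from edgeR, 3 of 3 libraries below the Control-78 median). The SLC9A3R1 call in S3-78 held in each of the 10 fits that left out 1 library. The SLC9A3R1 call in Direct-78 held in each of the 9 fits that left out 1 library. SLC9A3R1 had 773 to 1935 CPM in the 6 libraries of Control-57 (median 1562), and 477, 507, 718, 827 and 1293 in the 5 of S3-57. Mice 49 and 50 of S3-57 lay within the control range, and the other 3 below it. The log2 fold change in S3-57 was -0.91 ± 0.259 (SE, adjusted p = 0.0232 from edgeR, 5 of 5 libraries below the Control-57 median). The SLC9A3R1 call in S3-57 ended without any 1 of mice 51, 53, 81 and 83, the highest adjusted p being 0.107 from edgeR at a log2 fold change of -0.79 without mouse 51. SLC9A3R1 had 415 to 1362 CPM in the 6 libraries of Control-32 (median 749.6), and 986 to 1821 in the 6 of S1-32 (median 1217). S1-32 lay higher, with mouse 77 as the only Control-32 library within its range. There the log2 fold change was 0.77 ± 0.245 (SE, adjusted p = 0.0159 from edgeR, 6 of 6 libraries above the Control-32 median). The SLC9A3R1 call in S1-32 ended without mouse 75 (adjusted p = 0.0644 from edgeR, log2 fold change 0.62). S1-78 and S2-78 were not called, but all their libraries (661 to 943 CPM in S1-78, 482, 778, 819 and 825 in S2-78) lay below every Control-78 library, with adjusted p = 0.1 and 0.091 from edgeR and log2 fold changes of -0.73 and -0.86.

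Whether stopping DCA changes a transporter at the same age was tested directly. Between S2-32, still on DCA, and S1-32, 22 weeks past it, edgeR called 0 of 39 SLC genes where 3.54% of all genes were called. From edgeR, 6 SLC genes and 391 of 2205 genes had an unadjusted p under 0.05, and DESeq2 called 1 SLC gene and 6.67% of all genes. An edgeR fit of only these 2 groups called 8 SLC genes (3 higher, 5 lower), where 20.2% of all genes were called. Between S3-57 and S1-57, 47 weeks past DCA, edgeR called 0 of 39 SLC genes where 0% of all genes were called. From edgeR, 0 SLC genes and 111 of 2205 genes had an unadjusted p under 0.05, and DESeq2 called 0 SLC genes and 0.317% of all genes. Between Direct-78 and S3-78, 21 weeks past DCA, 3 of 39 SLC genes were called (0 higher, 3 lower) where 5.03% of all genes were. From edgeR these were SLC1A2 with -3.14 (standard error 0.887, adjusted p = 0.0257), SLC22A7 with -3.57 (standard error 0.952, adjusted p = 0.0194) and SLC30A7 with -2.39 (standard error 0.634, adjusted p = 0.0194), each with all 3 Direct-78 libraries below the S3-78 median. By edgeR the count was 0 without mouse 66, 1 without mouse 64, 5 without mouse 59 and 6 without mouse 65, with the shares of all genes not given here. It was 0 with the log2 total count as a covariate (1.41% of all genes) and in a fit of only these 2 groups (0%). Water alone gives the background of age. Between Control-78 and Control-10 edgeR called 0 of 39 SLC genes where 3.95% of all genes were called. From edgeR, 13 SLC genes and 379 of 2205 genes had an unadjusted p under 0.05. DESeq2 called 1 SLC gene and 7.48% of all genes. By edgeR the SLC median in that comparison was 0.56, with -0.057 over all genes, and 1 SLC gene was called without mouse 86 of Control-78.

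The change in S1-10 was tested against that in Direct-78, which use separate controls, at the adjusted p alone. It differed for 21 of 39 SLC genes, where 33.8% of all genes differed, and 19 of them were higher in S1-10 than in Direct-78. RLE factors gave 16 (13 higher, 3 lower), where 33.9% of all genes differed. Over all genes the differences were 449 higher and 296 lower by TMM but 326 higher and 421 lower by RLE. From edgeR the differences were 6.28 for SLC22A7 (standard error 1.18, adjusted p = 0.000111), 5.69 for SLC10A2 (standard error 1.24, adjusted p = 0.000608), 3.88 for SLC30A7 (standard error 0.776, adjusted p = 0.000251) and 3.64 for SLC30A5 (standard error 0.841, adjusted p = 0.0011). In the other direction they were -5.47 for SLC6A8 (standard error 1.08, adjusted p = 0.000213) and -3.28 for SLC27A1 (standard error 0.564, adjusted p = 5.69e-05) from edgeR. These 6 genes were picked for large differences, and of them SLC27A1 alone was called in S1-10, where SLC22A7, SLC6A8, SLC10A2, SLC30A7 and SLC30A5 had adjusted p = 0.0765, 0.194, 0.224, 0.288 and 0.487 from edgeR, in that order. The plot of both changes shows them. The count was 13 without mouse 64 of Direct-78, and 1 with the log2 total count as a covariate (0.499% of all genes), where depth and group cannot be told apart. Between S1-10 and S1-78, 1 of 39 differed, where 4.22% of all genes did. That gene was SLC27A1, with a difference of -1.81 (standard error 0.521, adjusted p = 0.0304 from edgeR) between -1.69 in S1-10 and 0.12 in S1-78. By edgeR that count was 0 without any 1 of mice 15, 17, 18, 31, 32, 68, 85, 87, 89 and 90, 2 without mouse 13 or mouse 33 and 3 without mouse 86, and 0 without the 4 libraries with pancreas genes and with the log2 total count as a covariate. A fit of only the compared groups called 2 SLC genes, where 4.9% of all genes were called. Both had a positive difference, so the negative difference of SLC27A1 was not called there.

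**Figure D5:**
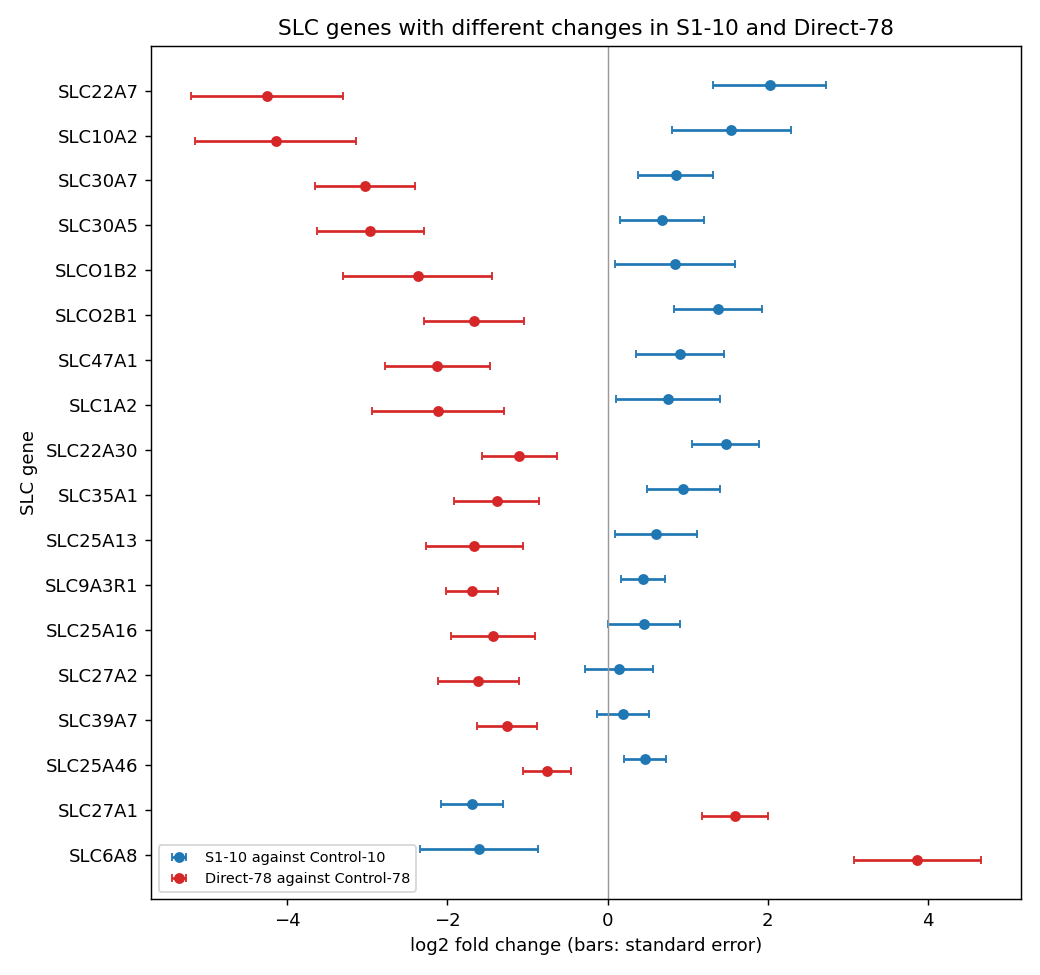
Log2 fold change with its standard error (bars) in S1-10 (blue) and Direct-78 (red) for 18 SLC genes whose changes differed and that have counts in both groups. SLC22A7 changes by 2.02 in S1-10 and by -4.25 in Direct-78, and SLC27A1 by -1.69 and 1.59.

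Markers of cell types and tissues were read in the same fits, where 10.5% of all gene tests were called over the 9 comparisons, and their part in the transporter results was not tested. A gene named as the most abundant or as leading a sum was so by the mean over all 68 libraries, which was not determined by group. The 7 hepatocyte markers had 4 of 63 tests called, 2 higher and 2 lower, and in Direct-78 these were FGB -3.64 (adjusted p = 0.00749) and HNF4A -2.19 (adjusted p = 0.0137) from edgeR. The 4 pericentral markers on the panel, of 10, had 3 of 36 tests called, 3 higher and 0 lower, and the 5 periportal ones, of 10, had 4 of 45 tests called, 1 higher and 3 lower. The periportal sum, with ASS1 the most abundant, was 2126, 3379 and 4306 CPM in Direct-78, 978, 4451, 10949 and 12641 in S3-78 and 8417 to 19333 in Control-78. The pericentral sum, with CYP2E1 the most abundant, was 2825, 3804 and 9876 CPM in Direct-78 and 10946 to 22557 in Control-78. Hepatocyte lists overlap, since CPS1 and CYP2E1 stand on the general list and on 1 of the zonal lists. Erythroid markers, 3 of 8 on the panel, had 2 of 27 tests called, 0 higher and 2 lower, and ALAS2, the most abundant, was called with -3.04 in S3-78 (adjusted p = 0.000785 from edgeR) and -3.38 in Direct-78 (adjusted p = 0.000944), where HBA-A1 and HBB-BS were at 0. The call of FGB in Direct-78 ended without mouse 64 (adjusted p = 0.0522, log2 fold change -3.42) and that of HNF4A in Direct-78 ended without mouse 64 or 66 (adjusted p up to 0.0888, at -1.84 without mouse 66) from edgeR. Log2 fold changes also moved, to -4.11 for ALAS2 in S3-78 without mouse 60 and -2.79 for ALAS2 in Direct-78 without mouse 65.

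Macrophage markers, 6 of 10 on the panel, had 6 of 54 tests called, 4 higher and 2 lower, and their sum, led by LYZ2, was 1294 to 1684 CPM in S1-32 and 485 to 1193 in Control-32, without overlap. In Direct-78 it was 319, 381 and 559 CPM and in Control-78 570.3 to 2032. Endothelial markers, 4 of 10, had 1 of 36 tests called, 1 higher and 0 lower, and their sum was 291 to 393 CPM in S1-32 and 104 to 324 in Control-32. S1-32 thus lay higher in the macrophage sum without overlap and in the endothelial sum, led by KDR, with overlap. Stellate cell and fibroblast markers, 6 of 10, had 8 of 54 tests called, 7 higher and 1 lower, with COL1A1 at 3.83 in S1-78 (adjusted p = 0.000116 from edgeR, and 3.22 without mouse 36). The 3 cholangiocyte markers had 2 of 27 tests called, 1 higher and 1 lower, which in Direct-78 were KRT19 2.94 (adjusted p = 0.0344) and SPP1 -3.63 (adjusted p = 0.0223) from edgeR. The call of KRT19 in Direct-78 ended without any 1 of mice 64, 66, 85, 87, 88 and 89 (adjusted p up to 0.332, at 1.66 without mouse 64) and that of SPP1 in Direct-78 ended without any 1 of mice 64, 66 and 90 (adjusted p up to 0.116, at -2.99 without mouse 64) from edgeR. Log2 fold changes also moved, to 3.71 for KRT19 in Direct-78 without mouse 65, 3.90 for KRT19 in Direct-78 without mouse 90 and -2.39 for SPP1 in Direct-78 without mouse 90. Lymphocyte markers, 5 of 10 on the panel and 3 kept, had 2 of 27 tests called, 1 higher and 1 lower, both of CD4, which was at least 4.82-fold lower in Direct-78 and at least 11.3-fold higher in S1-10, with Direct-78 and Control-10 at no count and taken at 3 over the group. These calls ended without any 1 of mice 64, 65 and 66 (adjusted p up to 0.118 from edgeR, and a bound of 2.86-fold without mouse 64) and without mouse 68 (adjusted p = 0.163), and CD3D also had no count in Direct-78. Of the 3 kept, 1 was above 0 and 2 below in Direct-78, and 2 above and 1 below in S1-10. The lymphocyte sum, led by PTPRC, was 31.1 to 46.4 CPM in Direct-78 and 20.9 to 48.7 in Control-78. It was 28.5 to 60 CPM in S1-10 and 36 to 53.4 in Control-10, with overlap in both pairs. Pancreas markers had 6 of 45 tests called, 6 higher and 0 lower, each of which ended without mouse 19 (S1-32), 36 (S1-78) or 47 (S2-78), with adjusted p = 0.538 to 0.993 from edgeR, and those of brain and muscle had 1 of 27 tests called, 1 higher and 0 lower, CKM as above. Of 8 kidney tubule markers, only SLC22A6 is on the panel, and it was removed by the filter and had at most 17.6 CPM in Direct-78.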

How the data were processed

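The deposited count table holds raw counts of reads per probed gene, 2755 genes in 78 libraries, which the authors had from the vendor. From these the authors made the signal in their normalized table, dividing each count plus 1 by a size factor of its library in 68 libraries (checked here to within 0.335%), and a filter on low geometric means left 2205 genes in a further table. The 10 libraries the authors left out were used only as an alternative. Raw counts of the 68 libraries and 2205 genes went into 1 quasi-likelihood fit of 13 groups by edgeR 4.0.16 (limma 3.58.1, R 4.3.3) after TMM scaling, with 2-sided tests and Benjamini-Hochberg adjustment within a comparison, and tables were made in Python 3.11.15. Differences between changes were tested as interaction terms. Alternatives were DESeq2 1.42.0, RLE factors, all genes with a count, the compared groups alone, the log2 total count as a covariate, all 78 libraries and leaving out each library. A gene without counts was taken at 3 counts over the group, the 95% limit of counting error alone.

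SLC genes are named with their levels, called ones with their log2 fold changes, and those among the 8 called in the most comparisons (ties by the smallest adjusted p) by library. The values of 2 genes are not reported here, although the counts and medians hold them. SLC6A8, SLC22A7 and SLC30A5 were added after their values were seen. Related and marker lists were written from general knowledge. Genes of the marker lists are named in part, whether called or not, as chosen after their values were seen. Members and lists were chosen with earlier results of these data known. Coordinates are those of GRCm38 in GENCODE release M21, 31 of the 39 genes matched a RefSeq promoter, and sequences not printed were not used here.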

Additional observations from a re-analysis of the deposited data

Results flagged for a closer look

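Among the 8 genes called in the most comparisons, 9 of 96 groups of 4 to 6 libraries had 1 library far from the others. About 1 in 20 groups pass the limit used if values are normal, and the rate for these CPM was not measured. Of the 9, 8 follow. SLC9A3R1 was 1808 CPM in mouse 85 of Control-78, above the 1104 to 1366 of its other libraries. SLC9A3R1 was 482 CPM in mouse 47 of S2-78, below the 778 to 825 of its other libraries. SLC27A1 was 140.2 CPM in mouse 86 of Control-78, above the 46.7 to 76.9 of its other libraries. SLC30A7 was 14.1 CPM in mouse 32 of S1-78, below the 68.2 to 93.1 of its other libraries. SLC10A2 was 541 CPM in mouse 90 of Control-78, above the 9.18 to 167 of its other libraries. SLC11A2 was 507 CPM in mouse 84 of Control-57, above the 54.1 to 142 of its other libraries. SLC11A2 was 449.8 CPM in mouse 20 of S1-32, above the 179.6 to 257 of its other libraries. SLC11A2 was 36.2 CPM in mouse 47 of S2-78, below the 222 to 226 of its other libraries.

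The change in S1-10 differed from that in Direct-78 for 21 SLC genes, where 33.8% of all genes differed. RLE factors gave 16 SLC genes (33.9% of all genes), and the log2 total count as a covariate gave 1 (0.499%). The differences in log2 fold change of the 21 included SLC10A2 5.69, SLC1A2 2.88, SLC22A30 2.58, SLC22A7 6.28, SLC25A13 2.27, SLC25A16 1.88, SLC25A46 1.23, SLC27A1 -3.28, SLC27A2 1.76, SLC30A5 3.64, SLC30A7 3.88, SLC35A1 2.33, SLC39A7 1.45, SLC47A1 3.03, SLC6A8 -5.47, SLC9A3R1 2.12, SLCO1B2 3.21 and SLCO2B1 3.05. Among the 21 were also SLC16A3 (5.78) and SLC18A2 (10.56), which have no count in Direct-78, so that these fitted values are no bounds. Between S1-10 and S1-78, SLC27A1 differed by -1.81, where 4.22% of all genes differed, and a fit of only the compared groups did not call that difference.

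When all genes with a count were tested, 17 of 171 tests of the 19 SLC genes the filter removed were called, 7 higher and 10 lower in the treated group, or 9.94% where 8.79% of all tests were. The lower ones were SLC7A11 in S1-10, S1-32 and S2-32, SLC17A6, SLC2A10, SLC2A6, SLC38A5, SLC6A15 and SLC6A3 in S1-32, and SLCO1C1 in S2-32. Control libraries with a count were 2 of 4 for SLC7A11 in Control-10 and, of 6 in Control-32, 2 for SLC6A3 and SLCO1C1, 3 for SLC38A5 and SLC6A15, 4 for SLC7A11, SLC17A6 and SLC2A6 and 5 for SLC2A10, with control medians of 0 to 6.60 CPM. The highest control library stood far above these medians, with 60.2 CPM in Control-10 and, by gene, 9.48 to 58.3 in Control-32. Of SLC7A11 in Control-10, 1 library held 102 of 112 counts, and of SLC2A6 in Control-32, 1 held 86 of 116. These lower calls thus lean on single control libraries, and fits without those libraries were not made for these genes. The higher ones follow with the highest library of the group in CPM. SLC51A reached 27.7 in S3-57 and 29.6 in Direct-78, SLCO1C1 4.57 in S3-78 and 10.8 in Direct-78, SLC22A6 17.6, SLC2A6 36.5 and SLC6A20A 84 in Direct-78. In Direct-78 SLC22A6 and SLCO1C1 had counts in only 1 of 3 libraries, SLC51A and SLC6A20A in 2 and SLC2A6 in all 3. SLCO1C1 had counts in 2 of 4 libraries of S3-78. Of SLC51A in S3-57, 3 of 5 libraries had a count, and 1 of them held 67 of the 70 counts. The controls of these comparisons held 0 to 17 counts of each.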

How the results depend on the processing

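Counts of SLC genes called moved by more than 1.5 times under these alternatives, and the cause was not tested. In parentheses are the count by edgeR with TMM and the share of all genes called in the alternative. By DESeq2 they were 5 in S1-10 (2, 11.1%), 5 in S1-57 (2, 4.67%), 1 in S1-78 (0, 3.85%), 5 in S2-32 (2, 17.8%), 2 in S2-78 (0, 4.4%), 11 in S3-78 (7, 19%), 1 in Control-78 against Control-10 (0, 7.48%), 1 in S2-32 against S1-32 (0, 6.67%) and 6 for S1-10 against S1-78 changes (1, 9.61%). RLE factors gave 1 in S1-57 (2, 1.27%) and 11 in Direct-78 (17, 21.6%), and all genes with a count gave 1 in S1-57 (2, 0.944%). Fits of only the compared groups gave 4 in S1-10 (2, 7.71%), 0 in S1-57 (2, 0.0907%), 0 in S3-57 (2, 3.72%), 7 in Direct-78 (17, 14.1%), 8 in S2-32 against S1-32 (0, 20.2%), 0 in Direct-78 against S3-78 (3, 0%) and 2 for S1-10 against S1-78 changes (1, 4.9%). The last 2 had positive differences, where that of the 1, SLC27A1, was negative. With the log2 total count as a covariate they were 0 in S1-32 (11, 1.63%), 1 in S2-32 (2, 9.07%), 1 in S3-78 (7, 5.31%), 0 in Direct-78 (17, 0.499%), 1 in Control-78 against Control-10 (0, 3.95%), 0 in Direct-78 against S3-78 (3, 1.41%), 1 for S1-10 against Direct-78 changes (21, 0.499%) and 0 for S1-10 against S1-78 changes (1, 1.68%). That covariate also reversed 5 Direct-78 log2 fold changes: SLC25A13 to 0.66, SLC25A16 to 0.15, SLC27A1 to -0.069, SLC47A1 to 0.42 and SLCO2B1 to 0.44. All 78 libraries gave 7 in S1-32 (11, 13.9%), 0 in S1-57 (2, 0.0907%), 0 in S2-32 (2, 3.08%), 0 in S3-57 (2, 0.544%), 0 in Direct-78 against S3-78 (3, 0%) and 0 for S1-10 against S1-78 changes (1, 4.76%). Without the 3 libraries of low correlation, a choice made after seeing the data, they were 0 in S2-32 (2, 7.35%), 9 in Direct-78 (17, 13.7%) and 1 in Direct-78 against S3-78 (3, 4.26%), and without the 4 with pancreas genes, also chosen then, 0 for S1-10 against S1-78 changes (1, 3.27%). Leaving out 1 library gave 0 to 2 in S1-10, 0 to 2 in S1-57, 0 to 3 in S2-32, 0 to 3 in S3-57, 3 to 11 in S3-78, 7 to 19 in Direct-78, 0 to 1 in Control-78 against Control-10, 0 to 6 in Direct-78 against S3-78, 13 to 22 for S1-10 against Direct-78 changes and 0 to 3 for S1-10 against S1-78 changes. For these fits the share of all genes is not given, so they do not tell a change in SLC genes from one over all genes.

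Of the 43 calls, 36 held with RLE factors, 40 by DESeq2, 39 with all genes tested, 28 with all 78 libraries, 25 with only the compared groups and 7 with the covariate. In these fits only the 5 above changed direction, and they are not among the 7. Direct-78 had 3 libraries of 541245 to 699825 counts, and which of depth, group size, scaling and single libraries limits it most was not tested.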
